A study of Mus musculus with 2 samples.

Results

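Genes that still carry a RIKEN cDNA symbol and gave a bright signal were compared between G1E cells before and after activation of a mutant GATA-1. The set was every probe set whose only gene symbol in the platform annotation ends in Rik and whose deposited signal was 500 or more on at least 1 of the 2 arrays. It held 126 probe sets of 98 genes, out of 1687 probe sets with such a symbol and 45101 probe sets in all. G1E is a mouse line of immature erythroid cells that lacks GATA-1. All cells carried ER-GATA-1(V205G), in which the ligand-binding domain of the estrogen receptor is joined to a GATA-1 mutant defective in binding its cofactor FOG-1. The untreated group was 1 array of cells prior to estradiol (0 h), and the estradiol group was 1 array of cells given 1 µM estradiol for 24 h. With 1 array in each group there was no replicate check, and no p-value or SD between cultures is given. An untreated array at 24 h, or cells lacking the fusion, were not analysed here, so the activated mutant, estradiol itself and time in culture cannot be told apart for any gene.

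A symbol ending in Rik is a provisional name taken from a clone of the RIKEN mouse full-length cDNA collection, and it is kept until a gene receives a name for its function or family. Such genes include small proteins, proteins known only by their human counterparts, and long non-coding RNAs (lncRNAs), which are transcripts that do not encode a protein. GATA-1 is the main transcription factor of erythroid cells and binds DNA at GATA motifs, and FOG-1 is a cofactor it needs at many, but not all, of its target genes.

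The arrays shared the same 2% trimmed mean, as deposited. The labelled cell type could be checked in part. All 10 erythroid and progenitor markers, such as Kit, Gata2, Klf1 and Tfrc, had signals of 500 or more on both arrays. Of these 10, 1 was at least 2-fold lower with estradiol (Lyl1, 6429 and 2305) and 1 at least 2-fold higher (Zfpm1, 3271 and 7485). Of 5 neutrophil and monocyte markers none reached 500 on either array, and the 3 lymphoid markers with a probe set, Cd3e, Cd79a and Cd4, stayed below the floor of 95.2, the median signal of all probe sets that are not array controls. Of 5 megakaryocyte markers, 3 were above the floor on both arrays: Itga2b (498 and 553), Gp1bb (259 and 294) and Pf4 (145 and 165). Itga2b alone reached 500, with estradiol, and was just under it untreated. Of 7 mast cell and basophil markers, 3 had signals of 500 or more on each array. These markers differed between the arrays, with a summed signal of 13272 untreated and 6065 with estradiol over the 7 genes. Of these 7, 3 were at least 2-fold lower: Cpa3 (6616 and 1146), Gzmb (4260 and 495) and Ms4a2 (2093 and 791). Tpsab1 was at least 2-fold higher (140 and 3418), so the sum does not stand for each gene. Fcer1a (144.5 and 47.3) and Hdc (3.8 and 152) were each below the floor on 1 array and went opposite ways. The part of these differences in the ratios of the RIKEN genes was not tested.

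In total 4 of the 126 probe sets differed by 2-fold or more, and the rest differed less. Those of 1700001L05Rik and 1810058I24Rik passed 2-fold upward with estradiol, and those of 5033406O09Rik and 3110082I17Rik passed it downward. Of all 10740 bright probe sets with 1 symbol of any kind, 2.69% passed 2-fold upward and 1.29% downward, so 2 of 126 in each direction is near the background. These counts describe 2 arrays, since the signals that chose the members also enter their ratios. The size against which a ratio can be read is the pooled SD of log2 ratios between bright probe sets of 1 gene, 0.19 over 6721 probe sets of 2650 genes, so that 2 SD are 0.37, or 1.30-fold. It holds noise of the probes and unequal transcript forms, and nothing of the spread between cultures. By this measure 32 of 126 members (25.4%) lay beyond 2 SD, against 25.7% of all bright probe sets.

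The sequences upstream of the genes past 2-fold are shown because the mutant keeps the DNA-binding part of GATA-1. Each is a window of 300 bases, from 250 before to 50 after an annotated transcript start, taken from RefSeq on GRCm38.p6 and written 5′ to 3′ in the direction of transcription. Capitals mark a GATA motif, searched as AGATAA, or as AGATAG, or as TGATAA, or as TGATAG, on both strands, with overlapping matches counted separately.

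1700001L05Rik, chr15:83367248-83367547, minus strand: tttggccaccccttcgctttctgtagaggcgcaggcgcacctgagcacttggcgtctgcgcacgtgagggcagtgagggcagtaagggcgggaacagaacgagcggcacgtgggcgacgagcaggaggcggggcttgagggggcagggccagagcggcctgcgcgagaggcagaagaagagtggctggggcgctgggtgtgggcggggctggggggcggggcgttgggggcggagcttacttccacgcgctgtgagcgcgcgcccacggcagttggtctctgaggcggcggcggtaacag

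1810058I24Rik first start, chr6:35252460-35252759, plus strand: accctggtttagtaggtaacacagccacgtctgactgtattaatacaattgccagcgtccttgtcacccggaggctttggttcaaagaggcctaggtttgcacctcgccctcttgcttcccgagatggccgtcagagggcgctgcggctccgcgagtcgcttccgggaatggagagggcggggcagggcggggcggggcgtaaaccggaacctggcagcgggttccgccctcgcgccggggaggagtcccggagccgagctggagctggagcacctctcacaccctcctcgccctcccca

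1810058I24Rik second start, chr6:35256741-35257040, plus strand: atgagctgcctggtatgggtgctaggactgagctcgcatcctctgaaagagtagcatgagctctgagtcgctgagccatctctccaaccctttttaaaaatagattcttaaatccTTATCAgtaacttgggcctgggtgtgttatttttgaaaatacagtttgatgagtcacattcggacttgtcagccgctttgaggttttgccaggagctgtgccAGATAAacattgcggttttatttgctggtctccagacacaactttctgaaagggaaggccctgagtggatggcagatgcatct

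3110082I17Rik, chr5:139460485-139460784, minus strand: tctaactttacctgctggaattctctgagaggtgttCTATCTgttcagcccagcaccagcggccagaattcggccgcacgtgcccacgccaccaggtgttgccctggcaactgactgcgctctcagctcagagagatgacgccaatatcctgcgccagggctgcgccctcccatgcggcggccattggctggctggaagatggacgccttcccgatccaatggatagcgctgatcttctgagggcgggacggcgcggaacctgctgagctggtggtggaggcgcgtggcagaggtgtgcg

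5033406O09Rik, chr12:111944433-111944732, minus strand: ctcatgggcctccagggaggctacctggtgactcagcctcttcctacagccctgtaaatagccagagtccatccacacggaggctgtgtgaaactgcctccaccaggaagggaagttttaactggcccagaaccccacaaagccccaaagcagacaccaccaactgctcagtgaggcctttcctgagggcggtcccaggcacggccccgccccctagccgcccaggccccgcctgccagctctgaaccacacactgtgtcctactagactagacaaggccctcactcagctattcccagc

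The 1700001L05Rik window held no match and 30 CpG dinucleotides, with a GC content of 70.3%. The window at the first start of 1810058I24Rik also held no match (25 CpG), while that at its second start held 2, AGATAA beginning 33 bases before the start and TTATCA, the reverse complement of TGATAA, beginning 135 bases before it. The 3110082I17Rik window held CTATCT, the reverse complement of AGATAG, beginning 214 bases before the start, and the 5033406O09Rik window held none. A match says only that these letters are there, and binding was not measured.

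Of the 98 genes, 81 had at least 1 window in the RefSeq table, and 18 of them (22.2%) had a motif in a window. The share was 20.4% among 5443 genes of other bright probe sets and 33.0% among all 27025 genes with a window. Counted by window, 21 of 106 member windows (19.8%) held a motif, against 17.5% of windows of other bright genes and 29.8% of all 32851 windows. The median number of CpG dinucleotides was 20.5 in member windows, 22 in those of other bright genes and 7 in all windows. By these features the members' windows lay nearer to those of other bright genes than to all windows. The 18 genes with a motif had a median log2 ratio of 0.09 and the 63 without had 0.07. Of the lncRNA members 1 of 19 had a motif in a window, and of the protein-coding members 17 of 62. By window, 2 of 34 lncRNA member windows (5.88%) held one, against 36.6% of all 11588 lncRNA windows, and 26.4% of protein-coding member windows, against 26.0% of all protein-coding windows. The lncRNA member windows also held more CpG dinucleotides, with a median of 15 against 4 in all lncRNA windows. Of these 34 windows 13 belonged to 1 gene, 5430401H09Rik, with no motif and at most 2 CpG dinucleotides each. Both windows with a motif belonged to 1110038B12Rik. The members were chosen for a bright signal, and other bright lncRNA genes were not set beside them by kind.

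1700001L05Rik, an lncRNA on chromosome 15, had the highest ratio of the set. Its probe set read 226 on the untreated array and 2306 on the estradiol array, a 10.2-fold higher signal (log2 ratio 3.35). It has 1 probe set, so no other reading of the same transcript was at hand, and the lower array was 226, above the floor of 95.2. The gene lies between Arfgap3, which encodes a regulator of ARF GTPases in the Golgi, and Pacsin2 in the RefSeq annotation. The brighter Arfgap3 probe set read 329 and 414 (log2 ratio 0.33) and the other 95.5 and 135 (0.50). The large difference at 1700001L05Rik was therefore not matched in size by this neighbour, and Pacsin2 was not analysed here.

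1810058I24Rik, on chromosome 6, has the name Stmp1 among its synonyms and encodes a short transmembrane protein of mitochondria. Its member probe set read 784 on the untreated array and 2435 on the other, 3.11-fold higher (log2 ratio 1.64). A dimmer probe set of the gene read 159 and 242, a log2 ratio of 0.61. Both were higher after estradiol, by amounts that differed by more than 1 on the log2 scale. Nup205, a nuclear pore gene next to it, had log2 ratios of -0.25 on its brightest probe set and 0.28 on the other.

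5033406O09Rik, an lncRNA on chromosome 12, had the lowest ratio. It read 556 untreated and 166 with estradiol, 3.34-fold lower (log2 ratio -1.74), on its only probe set. With a floor at the 70th percentile of signals the estradiol value is raised and the log2 ratio becomes -0.80, short of 2-fold. Its neighbour Ppp1r13b, which encodes the p53-binding protein ASPP1, was also lower, from 1214 to 729 (log2 ratio -0.74). Atp5mpl, an ATP synthase subunit gene on its other side, read 7793 and 7680 (-0.02).

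3110082I17Rik, a protein-coding gene on chromosome 5, was 2.04-fold lower, from 1208 to 591 (log2 ratio -1.03). In RefSeq its span overlaps Mir339, a microRNA gene, and Gpr146, a G-protein-coupled receptor gene, besides Gper1 and C130050O18Rik, which stayed below the floor. All 4 Gpr146 probe sets were higher after estradiol: they read 357 and 857 (log2 ratio 1.26), 350 and 841 (1.27), 150 and 254 (0.76), and 231 and 334 (0.53). The probe sets of 3110082I17Rik and Gpr146 thus read in opposite directions. Because the spans overlap, which transcript each probe set reads is uncertain. Zfand2a, the next gene, had log2 ratios from 0.30 to 0.46 on its 3 probe sets above the floor, and Mir339 itself was not analysed here.

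**Figure D1:**
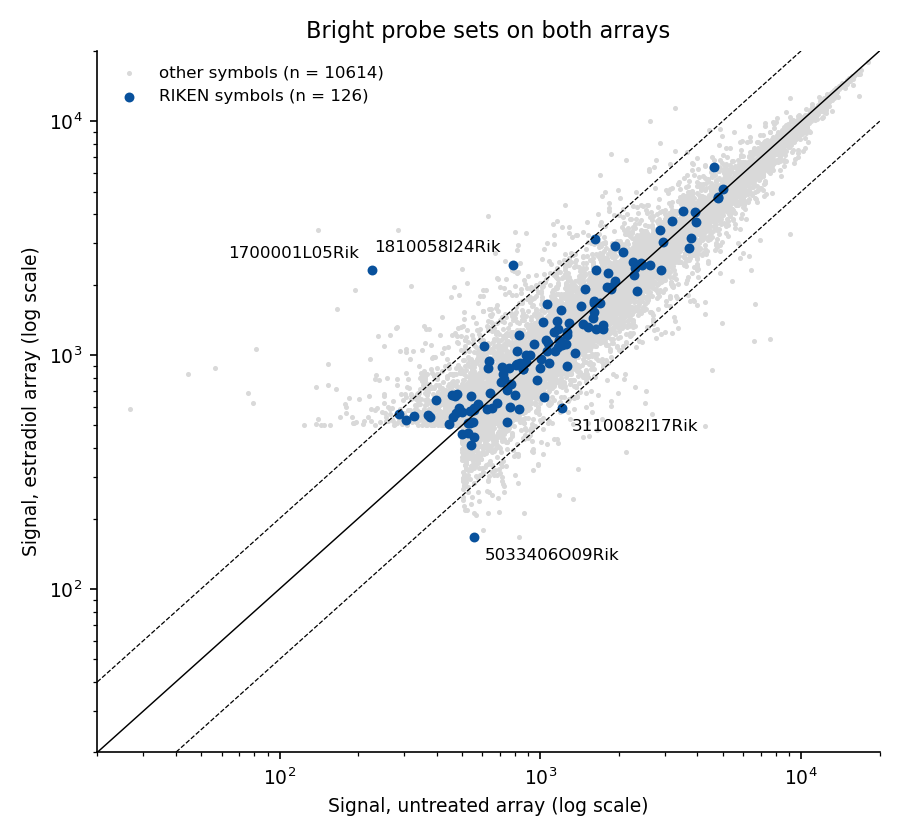
Signal on the untreated array (x axis) against signal on the estradiol array (y axis), both log scales, for 126 bright probe sets with a RIKEN symbol (blue) and 10614 with another symbol (grey). The solid line marks equal signals and the dashed lines 2-fold; 1700001L05Rik (226 and 2306) lies farthest above and 5033406O09Rik (556 and 166) farthest below among the blue points.

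All 126 members were above the floor on both arrays, with signals from 226 to 5016 untreated and from 166 to 6365 with estradiol. Of these 106 reached 500 on both arrays, 5 untreated only and 15 with estradiol only. The median log2 ratio was 0.07, with quartiles of -0.11 and 0.25, against -0.03 with quartiles of -0.21 and 0.18 for the 10614 bright probe sets with other symbols. Of the members 74 (58.7%) lay above 0, against 46.0% of the other bright probe sets. With 1 probe set per gene, 55.1% of the 98 genes lay above 0, with a median of 0.04. Of 6568 genes of other bright probe sets 44.8% did, with a median of -0.03. The 2 SD of 0.37 apply to the ratio of 1 probe set and not to a median, and the shift between the medians was not tested. Of the members 113 (89.7%) were within 1.5-fold. Symbols of other provisional kinds were few: 24 bright probe sets with a GenBank-style symbol had a median of -0.14, and 6 with a Gm number had -0.09.

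**Figure D2:**
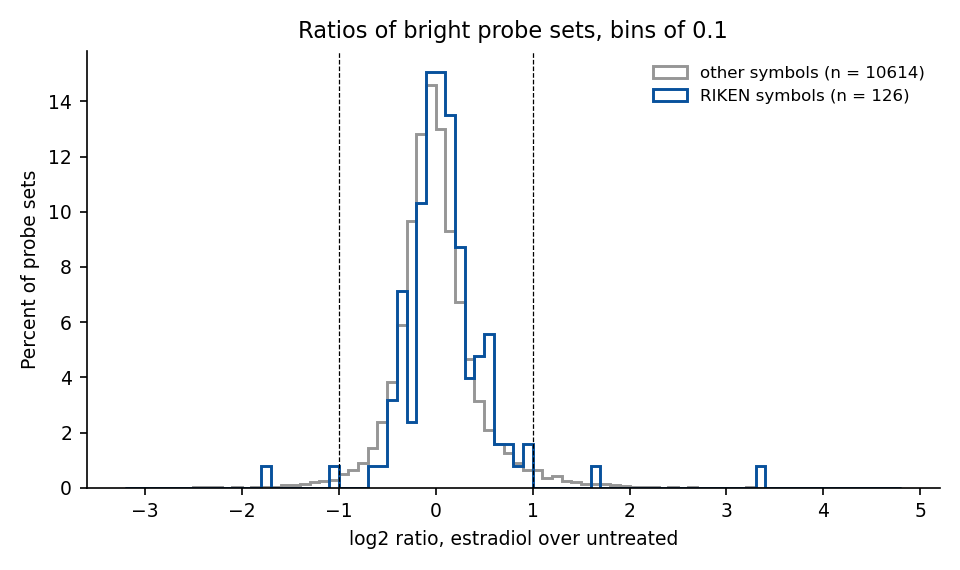
Percent of probe sets (y axis) in bins of log2 ratio of estradiol over untreated (x axis) for bright probe sets with a RIKEN symbol (blue, n = 126) and with other symbols (grey, n = 10614). Dashed lines mark 2-fold; the medians are 0.07 and -0.03, and 2 members lie beyond 2-fold on each side.

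At 1.5-fold, 10 probe sets were higher and 3 lower, against 7.36% and 5.09% of all bright probe sets. In both directions together 10.3% of the 126 members passed 1.5-fold, against 12.4% of all bright probe sets. Upward the share of the members is near the background. Downward it lies below, but this rests on 3 probe sets and is not read as a trait of the members. Taking 1 probe set per gene, the brightest, 8 of 98 genes were at least 1.5-fold higher and 2 lower, with 6.90% and 5.03% for genes of all bright probe sets.

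After the 4 genes past 2-fold, the higher protein-coding genes were led by 4921524J17Rik and 1110008P14Rik. 4921524J17Rik read 1625 and 3127, 1.92-fold higher (log2 ratio 0.94), while its neighbour Mylk3, a myosin light chain kinase gene, read 2009 and 2033 (0.02). 1110008P14Rik, which encodes a small coiled-coil protein, was higher on all 3 of its probe sets. They read 606 and 1090 (0.85), 638 and 944 (0.57), and 473 and 568 (0.26), so the size of the difference depended on the probe set. 4833420G17Rik read 1058 and 1654 (0.64) and 328 and 548 (0.74) on its member probe sets. Its dimmer probe sets above the floor had 0.44 and 0.22, and the next genes did not show it: Paip1 had 0.00 to 0.13 on 3 probe sets and Tmem267 had -0.04.

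6030458C11Rik lies next to Drosha, which encodes the nuclease that starts microRNA processing. Its member probe sets read 1941 and 2922 (log2 ratio 0.59) and 397 and 641 (0.69). The Drosha probe sets read 3195 and 5176 (0.70), 1460 and 2357 (0.69), and 172 and 439 (1.35). All of these were higher after estradiol by 1.5-fold or more. A dimmer 6030458C11Rik probe set read 86.0, which is below the floor, and 177. Pdzd2, the gene on the other side, had a log2 ratio of 0.11 on 1 probe set and read 125 and 90.3, the latter below the floor, on another.

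1600012H06Rik overlaps Phf10, a subunit gene of the SWI/SNF chromatin remodelling complex, in RefSeq. It read 378 and 544 (log2 ratio 0.52) with 0.20 on a dimmer probe set, and Phf10 read 5013 and 7159 (0.51) and 384 and 613 (0.68). Because the spans overlap, which transcript a probe set reads is uncertain. E130308A19Rik read 825 and 1221 (0.56), and its 4 dimmer probe sets had ratios from 0.34 to 0.69, all above 0. Its neighbours Hsdl2 and Inip had -0.30 and -0.16, so they did not share its direction. 1110059G10Rik (0.50) and 2610301B20Rik (0.43) were next, the latter beside Plekhf2, an endosomal protein gene that read 584 and 1038 (0.83).

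The other lower genes with no non-coding label differed little. 3830406C13Rik read 830 and 588 (log2 ratio -0.50), with -0.52 on a dimmer probe set. 2410002F23Rik, whose span holds snoRNA genes such as Snord88a and Snord88c, read 1364 and 1024 (-0.41). 4931406C07Rik read 544 and 414 (-0.39) and overlaps Taf1d, a gene for a cofactor of RNA polymerase I, whose brightest probe set had -0.10 and 1 of the others 1.04 (403 and 830). The dimmer 4931406C07Rik probe set had -0.26, and which of these overlapping transcripts a probe set reads is uncertain. B230308N11Rik, which was not matched in RefSeq, read 3728 and 2864 (-0.38) and 2902 and 2299 (-0.34). On their brightest probe sets these 4 genes lay beyond 2 SD (0.37) and within 1.5-fold.

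The remaining genes named at the low end lay within 2 SD (0.37). They were 2310061I04Rik (-0.37 and -0.43 on its 2 probe sets, the second beyond 2 SD), 1300017J02Rik (-0.35), 0610010F05Rik (-0.34), 1600014C10Rik (-0.31), B230219D22Rik (-0.25) and 4930503L19Rik (-0.24). 1300017J02Rik, also named Ica, encodes an inhibitor of carbonic anhydrase of the transferrin family and read 762 and 599. 0610010F05Rik, also Kiaa1841, read 1636 and 1293 and had -0.35 on its dimmer probe set. 1600014C10Rik is the counterpart of the human gene C19orf12, which is mutated in a neurodegenerative disease with iron deposits in the brain, and it read 971 and 786. Its dimmer probe set above the floor had 0.20, so the direction is not shared by its probe sets. The same held for B230219D22Rik, whose other member probe set had -0.12 and whose dimmer one had 0.22 (189 and 221).

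**Figure D3:**
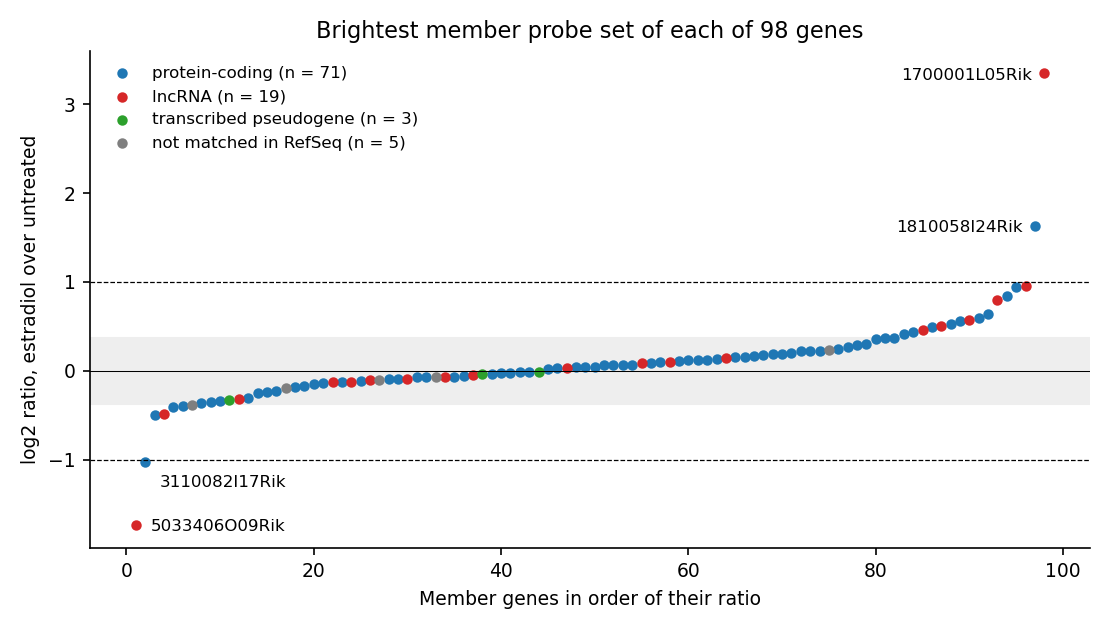
log2 ratio of estradiol over untreated (y axis) for the brightest member probe set of each of the 98 genes, in order (x axis), coloured by the kind of gene in RefSeq. The grey band is 2 SD (0.37) between probe sets of a gene and the dashed lines are 2-fold; 23 genes lie outside the band, 16 above and 7 below.

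In RefSeq annotation, 93 of the 98 genes were found, and they lay on 20 chromosomes with 2 to 7 genes on each. They were 71 protein-coding genes, 19 lncRNA genes and 3 transcribed pseudogenes. B230308N11Rik, 2210408K08Rik, C230091D08Rik, 4930445K14Rik and 4930555G07Rik were not matched. The protein-coding genes had a median log2 ratio of 0.07, with 10 above and 4 below the 2 SD range. The lncRNA genes had a median of 0.03, with 6 above and 2 below it, so 42.1% of them lay outside that range, against 19.7% of the protein-coding genes and 1645 of 6568 genes of bright probe sets with other symbols. Outside the range, the lncRNAs 1700001L05Rik, 1300002E11Rik, 5430401H09Rik, 1110002L01Rik, 3110021A11Rik and 5033406O09Rik reached the signal threshold only on their brighter array. These genes are in the set only through that array. The lncRNAs 2410006H16Rik and 1700097N02Rik reached it on both, as did the protein-coding genes there except 1600012H06Rik and 4931406C07Rik. The part of the signal filter in the contrast was not tested. With 19 lncRNA genes chosen by these same signals, the shares are a description only.

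Among the lncRNAs above the range, 1300002E11Rik read 288 and 559, 1.94-fold higher (log2 ratio 0.96). 5430401H09Rik read 305 and 528 (0.79), while the next genes lay below 0. Prkar2b, a regulatory subunit of protein kinase A, had -0.39 to -0.17 on 3 probe sets, and Pik3cg, a PI3-kinase catalytic subunit, had -0.31. 1110002L01Rik read 372 and 554 (0.57). It overlaps Kif3c, a kinesin gene that read 410 and 680 (0.73), and which of them a probe set reads is uncertain. 3110021A11Rik read 479 and 682 (0.51) with 0.10 on a dimmer probe set.

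Of the lncRNA members 3 overlap genes of snoRNAs, small RNAs that guide modification of ribosomal RNA and are often cut from introns of longer transcripts. 2410006H16Rik, which holds Snord49a, Snord49b and Snord65, read 4646 and 6365 (log2 ratio 0.45). Its neighbour Trpv2, a cation channel gene, was 2.33-fold higher, from 777 to 1808. 1110038B12Rik, which holds Snord52, read 5016 and 5109 (0.03), and 2700038G22Rik, which holds Snord93, read 881 and 937 (0.09). Of these 3, 2410006H16Rik alone lay beyond 2 SD. 5430416N02Rik, also Adapt33, an RNA first described in cells adapting to oxidative stress, read 650 and 595 (-0.13).

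On the lower side, 1700097N02Rik read 1260 and 897 (log2 ratio -0.49) and 1033 and 660 (-0.65), with -0.20 on a dimmer probe set. It lies between Glo1, which encodes an enzyme that removes methylglyoxal and had -0.14 to -0.04 on 4 probe sets, and Dnah8 (-0.10). D130020L05Rik read 556 and 445 (-0.32). The transcribed pseudogenes were 6820431F20Rik, at 2353 and 1877 (-0.33), 3000002C10Rik, at 4817 and 4694 (-0.04), and 2610005L07Rik. The last had 4 member probe sets with ratios from -0.01 to 0.14, and dimmer ones above the floor from -0.13 to 0.35. A pseudogene can share sequence with its parent gene, so the transcript behind these signals is uncertain.

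Several further members have a known role, and they were picked for that role after their values were seen. Their brightest probe sets lay within 2 SD (0.37). 4932438A13Rik (Kiaa1109, Tweek) and 2610507B11Rik (Kiaa0100) encode very large bridge-like proteins that move lipids between membranes. The former read 816 and 1046 (log2 ratio 0.36) with 0.63 on a dimmer probe set, and the latter 1865 and 1914 (0.04). 2700049A03Rik (Talpid3), a gene needed for primary cilia, read 642 and 687 (0.10), and its dimmer probe set went the other way (250 and 200, -0.32). Daam1, a formin gene beside it, was higher from 1664 to 3991 (1.26). 2310057M21Rik (PAAT), whose protein associates with mitochondrial ABC transporters, read 880 and 1000 (0.18). C330007P06Rik, the counterpart of the human gene for a protein that helps STING leave the endoplasmic reticulum, read 1074 and 1127 (0.07). 4833439L19Rik (P33monox), a putative monooxygenase gene, read 1487 and 1917 (0.37) and 458 and 675 (0.56). 1110004F10Rik (Smap, a small acidic protein) read 3528 and 4126 (0.23).

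Of the 98 genes 24 had several member probe sets, 52 probe sets in all. In 18 of the 24 genes all of them lay on 1 side of 0, and in 22 they differed by at most 2 SD (0.37). The median difference between the highest and lowest log2 ratio of a gene was 0.10, and no gene reached 1 over its member probe sets. The pooled SD over these 52 probe sets was 0.14, and that over all bright probe sets 0.19. The exceptions were 1110008P14Rik, with a difference of 0.58, and 1810030O07Rik, with 0.66. The latter read 914 and 998 (0.13) on the brighter probe set and 744 and 515 (-0.53) on the other.

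A further 67 probe sets of 41 member genes were under 500 on both arrays, and 42 of them, of 32 genes, were at or above the floor on both. None of these 42 reached 2-fold. For the 9 genes whose brightest probe set lay beyond 2 SD, all 13 such dimmer probe sets had the same direction as the brightest. These readings come from the same 2 RNA samples and are not replicates of a condition.

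**Figure D4:**
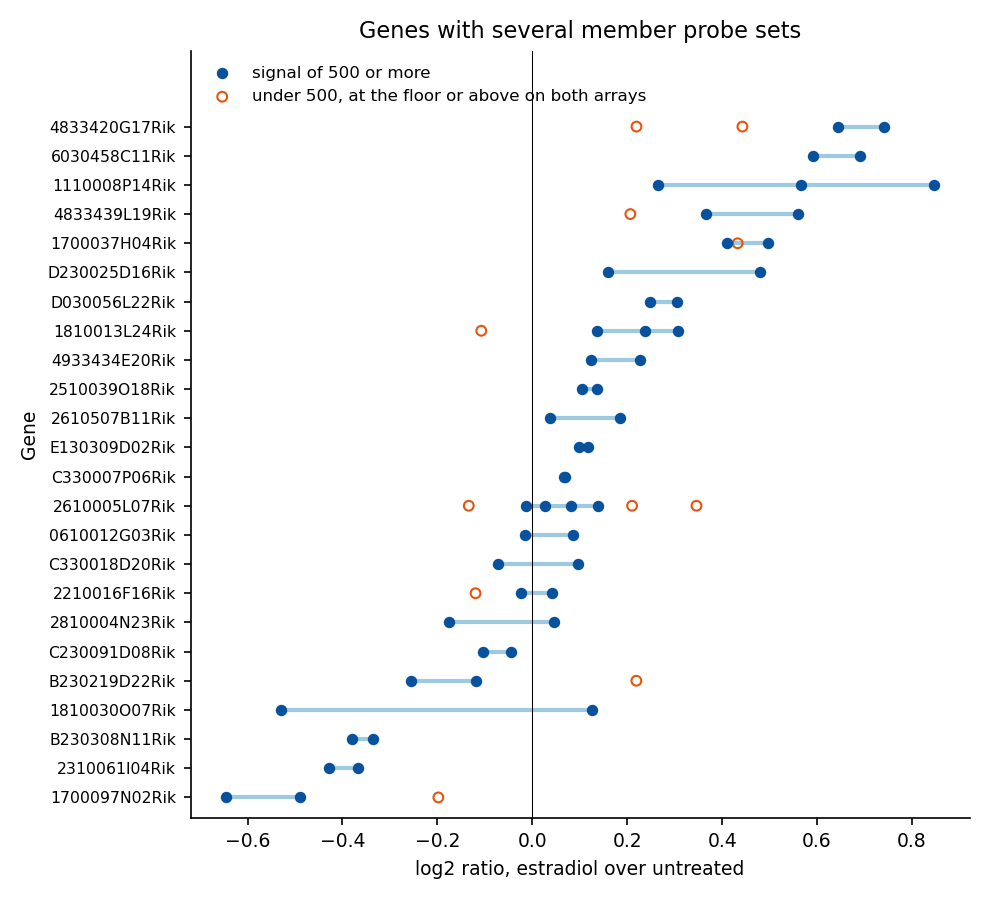
log2 ratio of estradiol over untreated (x axis) for each probe set of the 24 genes (y axis) with several member probe sets. Blue points have a signal of 500 or more, joined by a bar from lowest to highest, and open orange points are dimmer probe sets above the floor on both arrays; 1810030O07Rik and 1110008P14Rik have the widest bars, 0.66 and 0.58.

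Symbols also carry the source of the clone. Of the members 20 genes are named for clones of adult testis libraries, 66 for other libraries with a numeric code and 12 for libraries with a letter code. Their median log2 ratios were 0.12, 0.04 and -0.07, and the differences between these medians were not tested. The testis group held 1700001L05Rik and no gene past 2-fold downward, and the letter group held no gene past 2-fold in either direction. The background over all bright probe sets was 2.69% upward and 1.29% downward. In groups of 20 and 12 genes such absences are near this background and are not read as traits of the groups.

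Neighbours of the members differed about as seldom as the members themselves. By their brightest probe sets, 3 of 131 measured protein-coding genes with other symbols that overlap or adjoin 85 of the member genes passed 2-fold upward (Gpr146, Trpv2 and Daam1) and 1 downward. Of all 21054 measured probe sets, with any symbol or none, 2.03% and 1.01% did so. That share is by probe set and not by the brightest probe set of a gene, so the units differ. The lower gene was Gda, which encodes guanine deaminase and read 713 and 337 (log2 ratio -1.08) beside 1110059E24Rik at 1216 and 1106 (-0.14). None of the 4 lies beside a member past 2-fold in its own direction.

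**Figure D5:**
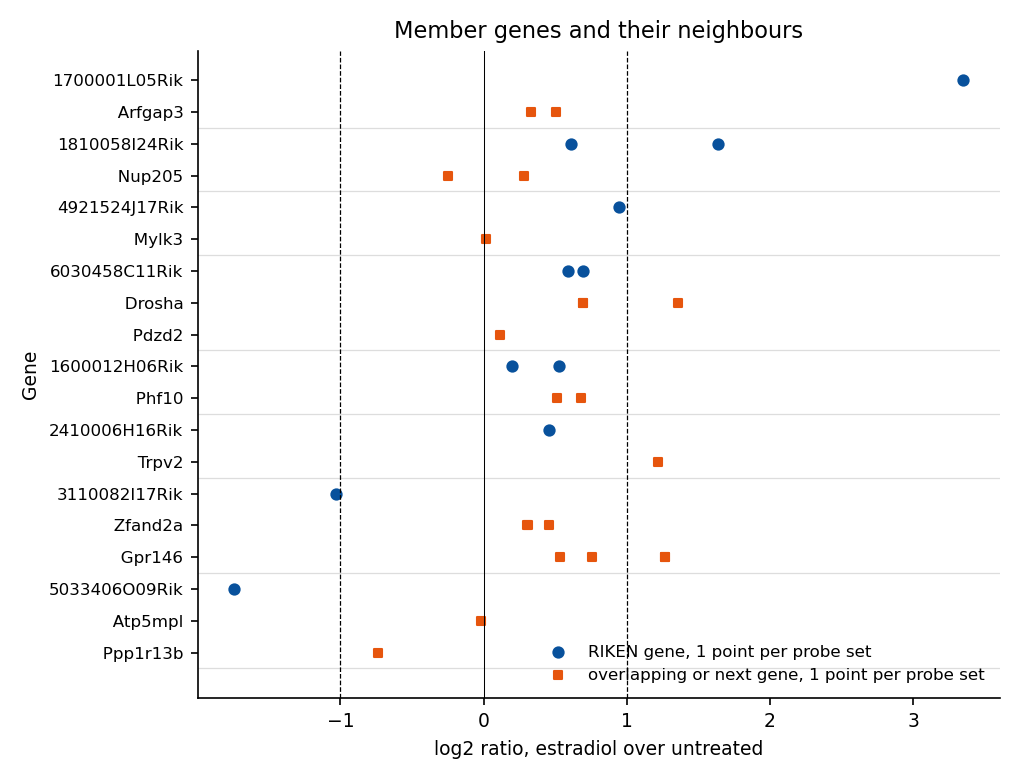
log2 ratio of estradiol over untreated (x axis) for 8 member genes (blue circles, 1 per probe set at or above the floor) and the protein-coding genes that overlap or adjoin them in RefSeq (orange squares), grouped by member. Dashed lines mark 2-fold; Gpr146 lies to the right while 3110082I17Rik lies at -1.03, and Drosha lies to the right together with 6030458C11Rik.

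The members just inside the signal threshold were 5031439G07Rik at 502 and 459, 2610507B11Rik on its dimmer probe set at 447 and 508, and 1700030K09Rik at 528 and 463. Just outside it were another probe set of 5031439G07Rik at 499.5 and 489, 4930430F08Rik at 380 and 499, and 1600020E01Rik at 413 and 497. Their log2 ratios were -0.13, 0.18 and -0.19 inside and -0.03, 0.39 and 0.27 outside. Among the members with the highest mean signal, 2410004B18Rik read 3914 and 4096 (0.07), and 2610005L07Rik read 4796 and 4755 (-0.01) on its brightest probe set.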

How the data were processed

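Signals came from 2 arrays of total RNA labelled with biotin. The authors deposited a linear intensity for each probe set. GCOS is named, without a version, per the submitters' processing notes. Values were used as deposited. Probe sets took their symbol from the platform annotation, and locations, kinds, synonyms and promoter windows came from RefSeq for GRCm38.p6, matched by Entrez identifier. Signals under the floor (the 50th percentile of non-control signals of both arrays, 95.2) were raised to it before the log2 ratio, and a ratio so formed is a bound. A gene took its brightest probe set. With 1 array per group no test was possible and the number of arrays limits the precision. Named genes were the 15 highest and 15 lowest ratios, the 5 highest mean signals and 3 probe sets on each side of the threshold. To these were added the 3 highest and lowest non-coding members and 1700001L05Rik. A further rule named genes whose member probe sets differ by 1 or more in log2 ratio. None did, with dimmer probe sets not counted. Other genes are neighbours or were named outside this rule with their values known, among them 5430416N02Rik, 2700038G22Rik and 1810030O07Rik. Members and lists were chosen with earlier results of these data known. Alternatives covered scaling, floor, signal threshold, unit, probe-set type and fold. Calculations, tested on simulated data, ran in Python 3.11.15 with pandas 2.3.3, numpy 2.4.6 and statsmodels 0.14.6, and plots were made with matplotlib 3.10.9.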

Additional observations from a re-analysis of the deposited data

Results flagged for a closer look

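Some probe sets outside the comparison were at least 2-fold brighter on the estradiol array than on the untreated array. A probe set that carries several symbols, and was left out for that reason, read 246 and 643 (log2 ratio 1.39). It was 1 of 22 bright probe sets with several symbols, a RIKEN symbol among them; none of the others passed 2-fold, and the median was -0.12. Among 453 RIKEN probe sets under 500 that reached the floor on at least 1 array, 7 (1.55%) were at least 2-fold higher. The share among 9128 probe sets with another single symbol, taken the same way, was 1.68%, so the count is near the background. Of these 1700042O10Rik read 98.2 and 264 (1.43), 6030442K20Rik read 109 and 278 (1.35), 4930402H24Rik read 104 and 223 (1.10), and D430020J02Rik read 206 and 434 (1.07). The other 3 were below the floor untreated, so their ratios are bounds: at least 1.04 for 2310075K07Rik (68.4 and 196), 1.04 for a dim probe set of 0610012G03Rik (94.3 and 196) and 1.00 for A430108G06Rik (69.2 and 191). All 8 are differences between 2 arrays with no replicate check.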

How the results depend on the processing

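The counts of 2 probe sets higher and 2 lower were recomputed under 15 alternatives and the median log2 ratio under 13, over which it ranged from 0.03 to 0.09. All 4 ways of rescaling the arrays left both counts at 2, though scaling to a common trimmed mean could not change them, since the arrays already had the same one. With a floor at the 70th percentile 1 probe set was lower, because 5033406O09Rik had -0.80, and 1700001L05Rik had 2.85. The signal threshold also changed the number of members. With a threshold of 250 there were 5 higher of 218 probe sets, and with 1000 there was 1 lower of 71. With 500 required on both arrays 1 of 106 was higher and 1 lower, because 1700001L05Rik and 5033406O09Rik are bright on 1 array only. The share over all probe sets was not set beside the counts at these other thresholds, so they are not read as a change against the background. At 1.5-fold 10 were higher, and at 3-fold 1 was lower. Of 266 values of 38 named genes under 7 alternatives of scaling and floor, 264 moved by less than the SD between probe sets (0.19), and none past 2-fold changed sign. Part of this was fixed in advance. The arrays already shared a trimmed mean, and all members lay above a floor at the 30th percentile. Setting the median to 0 shifted every ratio by 0.017. Signals near the floor limit the ratios of the dimmer probe sets. No paired analysis was possible because each group had 1 array.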

Other observations

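Dim probe sets held 1 RIKEN gene that was at least 2-fold lower, C130071C03Rik. It read 214 untreated and 83.3 with estradiol, below the floor, a bound of at least 2.24-fold lower. Of the other single-symbol probe sets taken the same way, 1.24% were at least 2-fold lower. Of 1561 RIKEN probe sets under 500 on both arrays, 1108 lay below the floor on both and gave no ratio.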
